A study of Mus musculus with 11 samples.

Results

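The elastic fiber genes of the mouse aorta were compared between old nitrate treated and old control mice. The list held 10 genes, Eln, Fbn1, Fbn2, Mfap2, Mfap4, Mfap5, Fbln5, Efemp2, Ltbp4 and Emilin1, and every non-control probe that the array files name for one of them was taken, 14 of 55681 probes in all. Of these, 4 genes had 2 probes and 6 had 1. A probe counted as detected if at least 5 arrays of one group had its spot found and well above background. By this rule, 12 of the 14 probes and 9 of the 10 genes were detected, among 23632 detected probes on the array. The old nitrate group was 5 male C57BL/6 mice aged 20 months whose drinking water held 1 g/L NaNO3 over 8 weeks. The old control group was 6 male C57BL/6 mice of the same age. According to the study they drank sodium chloride at an equal concentration, but their labels name only "control", refer to a new analysis of earlier samples, and do not show that they were kept together with the nitrate treated mice. The treatment text attached to the control arrays is the same as for the nitrate arrays and describes only nitrate, so what the controls drank is not settled by the labels. RNA of the flushed and cleaned descending aorta of each mouse was measured on a one-color array, so each array is 1 mouse. The study describes a sixth nitrate treated mouse, whose array was not analysed here.

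Elastic fibers give the aorta its recoil. Smooth muscle cells and fibroblasts secrete tropoelastin, the product of Eln, which is assembled on a scaffold of microfibrils and crosslinked by lysyl oxidases into an insoluble core that is turned over very slowly and largely laid down early in life. The microfibrils are built from fibrillins, carry microfibril-associated glycoproteins, and also bind latent TGF-beta, while fibulins and latent TGF-beta binding proteins bring tropoelastin to them. The RNA levels given here do not show how much elastin the wall holds.

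The arrays lay on 3 slides that each held both groups, nitrate 1 and 2 with control 1 and 2 on slide 1, nitrate 3 with control 4 and 6 on slide 2, and nitrate 4 and 5 with control 3 and 5 on slide 3. The control arrays occupied the third slide column throughout and nitrate arrays the other columns, so slide column and treatment cannot be told apart. Outlier flags removed at most 186 of 59305 spots per array, no spot was saturated, and between 24760 and 28655 probes were detected per array. The array least like the others was control 1, with a mean correlation of 0.985. Heart muscle markers were high on nitrate 4 and control 1, where the mean of 8 such genes lay 3.53 and 2.94 log2 units above its average over the 11 arrays, against -1.70 to 0.57 on the others. All 8 smooth muscle and 8 endothelial markers of the aortic wall were detected, as were all white and brown adipocyte, heart muscle and macrophage markers with a probe, so detection alone does not check the label of the tissue.

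All values below are quantile normalized log2 signals, given as mean ± SD, and differences are nitrate minus control. The signal of one probe does not measure the abundance of its transcript against that of another, so levels are compared only within a probe. A gene with several detected probes was represented by the brightest one, except in the ranking by likeness to Eln. P values are those of the moderated test of limma, adjusted P values are Benjamini-Hochberg values over all detected probes, and exact p values are from two-sided permutation tests that run through each of the 462 ways to divide 11 mice, so that no value can be below 0.00216. A change was called at an unadjusted P under 0.05 with a fold change above 1.2.

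Most elastic fiber genes had a slightly higher mean in nitrate treated mice, by 1.12-fold to 1.32-fold. Eln had a lower mean, but its difference could not be told from none. Of the 9 detected genes, 8 had a higher mean in nitrate treated mice, against 53.8% of all detected probes. An unadjusted P under 0.05 was reached by 5 genes, Mfap2, Mfap4, Mfap5, Fbln5 and Efemp2, all in the direction of higher signal, where 7.71% of all detected probes had such a value (14.4% in either direction). Only Fbln5 and Mfap4 were also changed by more than 1.2-fold, as were 4.16% of all detected probes in the same direction. None of the 9 genes had an adjusted P under 0.05 in limma, the smallest being 0.269 for Fbln5, against 3 of all detected probes (0.0127%). The median difference of the 9 genes was 0.21, and that of all detected probes 0.01 with quartiles of -0.10 and 0.11. Since whole aorta was used, a change in the number of cells of a type and a change in RNA per cell cannot be told apart.

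**Figure D1:**
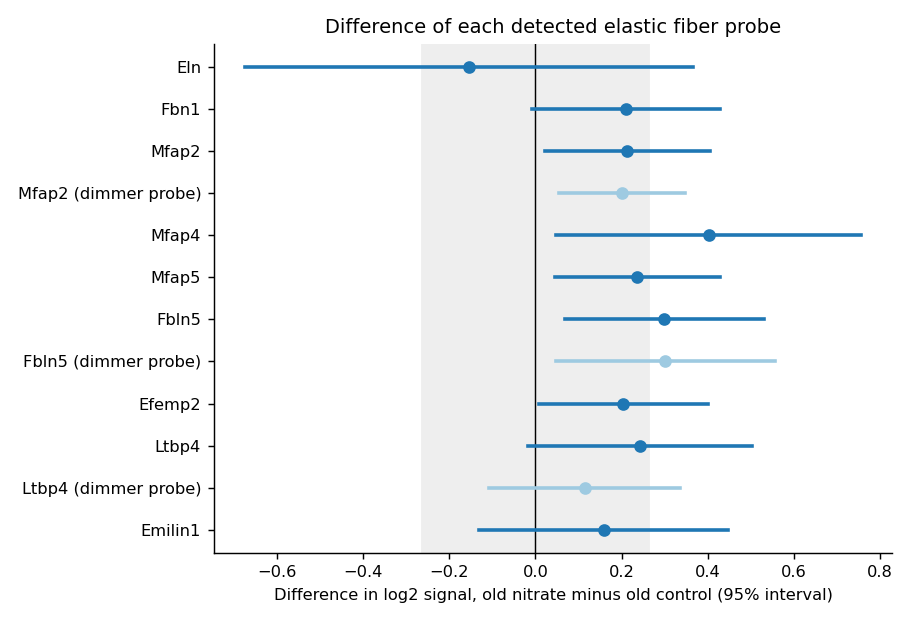
Difference in log2 signal between old nitrate treated and old control mice for the 12 detected probes of elastic fiber genes, with 95% intervals from limma. Dark blue marks the brightest probe of a gene, pale blue a dimmer one, and the gray band the range below a 1.2-fold change. The points of 11 probes lie above 0, that of Eln lies below 0 and has the widest interval, and those of both Fbln5 probes and of Mfap4 lie outside the band.

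The plot of differences shows intervals that for each of these genes reach beyond the 1.2-fold limit. The upper ends of the intervals of the 8 higher genes lay between 0.40 and 0.76 on the log2 scale, against 0.263 for a 1.2-fold change.

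Eln, which encodes the elastin monomer tropoelastin, was measured by 1 probe (mm9 chr5:135179129-135179188, minus strand). Its log2 signal was 13.11, 13.28, 13.06, 11.91 and 12.28 on nitrate 1 to 5. In the 6 controls it ranged from 12.55 to 13.20 with a median of 12.87. Nitrate 4 and 5 thus lay below every control, while the other 3 nitrate treated mice lay above the control median, and nitrate 2 above every control. The means were 12.73 ± 0.60 in 5 nitrate treated and 12.88 ± 0.26 in 6 control mice. The difference of -0.15 (SE 0.24, 95% interval -0.68 to 0.37) had an adjusted P of 0.809 and an exact p of 0.576. The interval includes falls and rises past 1.2-fold, so an Eln difference of that size could not be told from none here. The difference became 0.05 without nitrate 4, -0.04 without nitrate 5 and -0.29 without nitrate 2, and without nitrate 1, nitrate 3, control 2 or control 4 it lay between -0.25 and -0.09. The 2 low mice were both on slide 3, and nitrate 4 was also the array with the high heart muscle markers, whereas the mean of those markers on nitrate 5 was 0.57. Control 1, the other array with high heart muscle markers, had an Eln signal of 12.86, near the control median. The part of slide or of heart muscle RNA in the low Eln signal was not tested.

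Pooled over both groups, the spread between mice was largest for Eln. Its SD pooled over both groups was 0.444, which is larger than that of 94.5% of all detected probes, where the median was 0.184. Mfap4 followed with 0.295, larger than 80.4% of probes, and the other 7 genes had pooled SDs from 0.140 to 0.235. In the nitrate group alone the SD of Eln was also the largest, at 0.60. Among controls the SD of Eln was 0.26, below those of Mfap4 (0.35) and Ltbp4 (0.27).

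**Figure D2:**
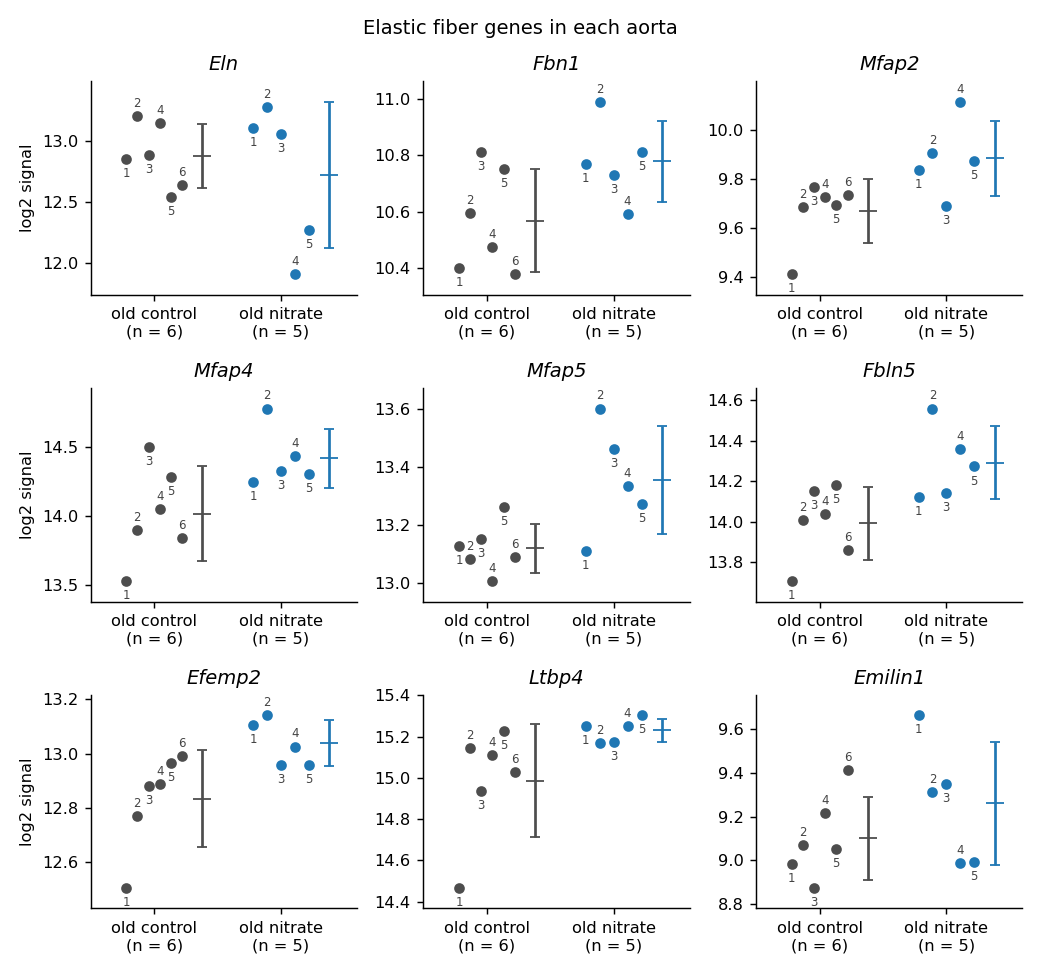
Log2 signal of the brightest probe of each detected elastic fiber gene on every array, with replicate numbers beside the points and the mean ± SD to the right of each group (6 old control mice in gray, 5 old nitrate treated mice in blue). The groups overlap for each of the 9 genes, Eln is split within the nitrate group, and control 1 is the lowest point for Mfap2, Mfap4, Fbln5, Efemp2 and Ltbp4.

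Of the fibrillins, which form the backbone of the microfibril, Fbn1 was detected on all arrays and Fbn2 on none. Fbn1 (mm9 chr2:125126727-125126786, minus strand) had log2 signals of 10.77, 10.99, 10.73, 10.59 and 10.81 on nitrate 1 to 5 and of 10.38 to 10.81 in controls, with a control median of 10.53. Every nitrate treated mouse lay above the control median and 1 above the highest control. The difference was 0.21 (SE 0.10), with an adjusted P of 0.365 and an exact p of 0.0736. Neither of the 2 probes of Fbn2, the fibrillin known mainly from development, was well above background on any of the 11 arrays, so no difference is given for it.

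Mfap2 and Mfap5 encode the small microfibril-associated glycoproteins MAGP-1 and MAGP-2. Mfap2 was read by 2 probes, 1 of them in a cysteine-rich stretch. That probe and the dimmer Ltbp4 probe are shown here because cysteine-rich stretches occur in both of these microfibril proteins and because both probes could be read as coding sequence. Capitals mark cysteine codons in the reading frame that has no stop codon and the most cysteine codons, 4 in the Mfap2 probe (mm9 chr4:140570920-140570979, plus strand) and 2 in the Ltbp4 probe (mm9 chr7:28091095-28091154, minus strand). The frame was inferred from the 60 bases alone.
Mfap2: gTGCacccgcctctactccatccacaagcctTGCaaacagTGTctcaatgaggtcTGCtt
Ltbp4: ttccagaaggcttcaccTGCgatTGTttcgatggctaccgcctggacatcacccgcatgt

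The brighter Mfap2 probe (mm9 chr4:140571828-140571887, plus strand) had log2 signals of 9.84, 9.91, 9.69, 10.11 and 9.87 on nitrate 1 to 5. Controls ranged from 9.41 to 9.77 with a median of 9.71, so 4 nitrate treated mice lay above every control and nitrate 3 lay below the control median. The difference was 0.21 (SE 0.09), with an adjusted P of 0.315 and an exact p of 0.0216. The probe in the cysteine-rich stretch had a difference of 0.20 (SE 0.07), with an adjusted P of 0.245 and an exact p of 0.00649, and 4 nitrate treated mice again lay above every control. The probes lie apart in the transcript and gave nearly the same size of difference.

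Mfap5 (mm9 chr6:122478591-122478650, plus strand) had log2 signals of 13.11, 13.60, 13.46, 13.33 and 13.27 on nitrate 1 to 5, and controls ranged from 13.01 to 13.26 with a median of 13.11. All but nitrate 1 lay above the highest control. The difference was 0.24 (SE 0.09), with an adjusted P of 0.283 and an exact p of 0.0238.

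Mfap4, a fibrinogen-related protein that is found along elastic fibers and binds their components, had the largest difference of the 9 genes (mm9 chr11:61302147-61302206, plus strand). Its log2 signals were 14.25, 14.78, 14.33, 14.43 and 14.30 on nitrate 1 to 5. Controls ranged widely, from 13.53 to 14.51 with a median of 13.97. All nitrate treated mice lay above the control median but only nitrate 2 above the highest control. The difference was 0.40 (SE 0.16, 1.32-fold), with an adjusted P of 0.310 and an exact p of 0.0541. It was 0.31 without nitrate 2 and 0.30 without control 1. The unadjusted P of limma was no longer under 0.05 without nitrate 2, nitrate 4, control 1, control 2 or control 6.

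The fibulins Fbln5 and Efemp2 are needed for elastic fiber assembly. Fibulin-5 binds tropoelastin and helps to place it on microfibrils, and fibulin-4, the product of Efemp2, binds both tropoelastin and lysyl oxidase. Fbln5 (mm9 chr12:102988153-102988212, minus strand) had log2 signals of 14.12, 14.56, 14.14, 14.36 and 14.27 on nitrate 1 to 5, with controls from 13.71 to 14.18 and a control median of 14.02. Every nitrate treated mouse lay above the control median and 3 above the highest control. The difference was 0.30 (SE 0.11, 1.23-fold), with an adjusted P of 0.269 and an exact p of 0.0216. Without nitrate 2 and without control 1 the difference was 0.23 and 0.24, below a 1.2-fold change, with limma P values of 0.0451 and 0.0292. The dimmer Fbln5 probe (mm9 chr12:102984878-102984937, minus strand) also had a difference of 0.30 (SE 0.12), with an adjusted P of 0.292 and an exact p of 0.0368. Its log2 signals were only 5.23 to 5.86 in nitrate treated and 5.10 to 5.47 in control mice, and it was detected on 5 of 6 control arrays.

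Efemp2 (mm9 chr19:5481762-5481821, plus strand) had log2 signals of 13.11, 13.14, 12.96, 13.03 and 12.96 on nitrate 1 to 5. Controls ranged from 12.51 to 12.99 with a median of 12.89. Here 3 nitrate treated mice lay above every control and the other 2 within the upper part of the control range. The difference was 0.20 (SE 0.09), with an adjusted P of 0.335 and an exact p of 0.0260.

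Ltbp4, a latent TGF-beta binding protein that is also required for fibulin-5 and elastin to reach the microfibrils, had 2 probes that differed in size of effect. The brighter one (mm9 chr7:28090175-28090234, minus strand) had log2 signals of 15.25, 15.17, 15.17, 15.25 and 15.30 on nitrate 1 to 5, and 14.47 to 15.23 in controls with a median of 15.07. The nitrate treated mice were close together, with an SD of 0.06, while the controls had an SD of 0.27, to which the low value of control 1 contributed. The difference was 0.24 (SE 0.12), with an adjusted P of 0.377 and an exact p of 0.0303. Without control 1 it was 0.14. The dimmer probe, whose sequence is given above, had a difference of 0.11 (SE 0.10), an adjusted P of 0.635 and an exact p of 0.346, and no nitrate treated mouse lay above every control on it.

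Emilin1, which sits between the elastin core and the microfibrils, was read by 1 probe split over an interval longer than itself (mm9 chr5:31222545-31223001, plus strand). Its log2 signals were 9.66, 9.31, 9.35, 8.99 and 8.99 on nitrate 1 to 5, and 8.88 to 9.41 in controls with a median of 9.06. Within the nitrate group, nitrate 4 and 5 were lowest, as for Eln. Both were on slide 3, where the controls were as low for Emilin1, with means of 8.99 in nitrate treated and 8.96 in control mice. Eln, in contrast, differed by -0.62 on that slide. Over all arrays the difference of Emilin1 was 0.16 (SE 0.13), with an adjusted P of 0.612 and an exact p of 0.288. Without nitrate 1 it was 0.06.

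The genes were not equally placed across mice. For each gene the log2 signal was set to its mean over the 11 arrays, and the 9 genes were averaged per mouse. This mean was 0.305 in nitrate 2, which was the highest mouse for Eln, Fbn1, Mfap4, Mfap5, Fbln5 and Efemp2, and -0.334 in control 1, which was the lowest mouse for 5 genes. It ranged from 0.00215 to 0.305 in nitrate treated and from -0.334 to -0.00250 in control mice, a description to which no test was applied. Without nitrate 2, 1 gene kept an unadjusted P under 0.05 and none passed P and fold together. Without control 1 the numbers were 2 and 0. Without nitrate 4 they were 3 and 1, and without control 2 they were 3 and 1. Mfap2 lost an unadjusted P under 0.05 without nitrate 2, nitrate 4 or control 1, Mfap5 without nitrate 2 or nitrate 3, and Efemp2 without nitrate 1, 2 or 4 or control 1, 2, 3 or 4. Fbn1 gained it without nitrate 4, control 3 or control 5, and Ltbp4 without control 5. Leaving out control 6 left 1 gene past P and fold, and leaving out control 5 raised that number to 4. The number of all detected probes past P and fold was 2128 with all arrays, and 1618 without nitrate 2, 1596 without control 1, 2275 without nitrate 4, 2019 without control 2, 2424 without control 6 and 2366 without control 5. The median difference of the 9 genes stayed between 0.16 and 0.25 whichever array was left out, and the direction of the 8 higher genes did not change.

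Within slides, the size of the difference was unequal. The median of the 9 genes was 0.40 on slide 1, where all 9 were higher in nitrate treated mice, 0.16 on slide 2, where 8 were higher, and 0.07 on slide 3, where 6 were higher. Mfap5, Fbln5, Efemp2, Ltbp4 and Emilin1 were higher in nitrate treated mice on all 3 slides. Fbln5 differed by 0.48, 0.19 and 0.15 on slides 1 to 3. Mfap4 differed by 0.80, 0.38 and -0.03, so its overall difference came from slides 1 and 2. Eln differed by 0.16, 0.16 and -0.62. Each slide held at most 2 mice per group, so no slide was tested alone. With slide as a term in the model, 5 genes had an unadjusted P under 0.05 and the median difference was 0.21. In that model 2 elastic fiber genes and 2461 of all detected probes passed P and fold, against 2 and 2128 without the slide term.

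**Figure D3:**
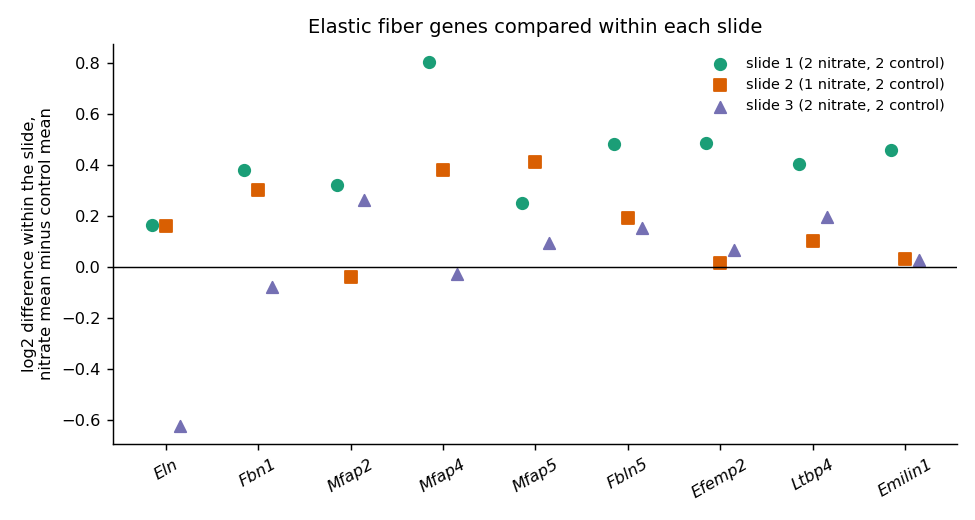
Difference in mean log2 signal, nitrate minus control, for each detected elastic fiber gene within slide 1 (circles), slide 2 (squares) and slide 3 (triangles). Points of slide 1 are all above 0 and reach 0.80 for Mfap4, whereas on slide 3 Eln lies at -0.62 and Fbn1 and Mfap4 just below 0.

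Markers of the cells that make elastic fibers and of other tissue were compared in the same way. The 8 smooth muscle markers were all detected and all had a higher mean in nitrate treated mice, with a median difference of 0.18 and a range of 0.03 to 0.31, and 2 had an unadjusted P under 0.05, 1 of them past P and fold, where 7.71% and 4.16% of all detected probes were higher past these limits. Their mean per mouse ranged from -0.05 to 0.25 in nitrate treated and from -0.40 to 0.03 in control mice, and control 1 was lowest. All 9 fibroblast markers had higher means as well, with a median difference of 0.16, 2 with an unadjusted P under 0.05 (7.71% of all detected probes) and 0 past P and fold, and a mean per mouse of -0.08 to 0.21 in nitrate treated and -0.27 to 0.01 in control mice, again lowest in control 1. In contrast, the 10 white adipocyte markers were all lower in nitrate treated mice, with a median difference of -0.31, and 5 passed P and fold, as did 4.85% of all detected probes in that direction. The adipocyte mean ranged from -0.49 to -0.01 in nitrate treated and from -0.09 to 0.46 in control mice. The means were higher in nitrate treated mice for 7 of 8 heart muscle markers (median difference 0.69), 5 of 5 detected chondrocyte markers (0.15), 8 of 8 macrophage markers (0.08), 4 of 8 endothelial markers (-0.04) and 3 of 7 brown adipocyte markers (-0.15). P and fold together were passed by 1 heart muscle marker and 1 chondrocyte marker, both higher (4.16% of all detected probes), of which the chondrocyte marker met the detection rule only through the nitrate group, by 1 brown adipocyte marker, lower (4.85%), and by 0 endothelial and 0 macrophage markers, each by its brightest probe. Dimmer probes of the endothelial marker Kdr and of the white adipocyte marker Cidec did pass where the brightest did not, with differences of -0.57 and -0.38. The mean difference of the heart muscle list, 0.78, was 0.01 without nitrate 4 and 1.44 without control 1. Without control 1 the mean difference of the smooth muscle list went from 0.16 to 0.10, that of the chondrocyte list from 0.19 to 0.10 and that of the brown adipocyte list from -0.07 to 0.06, and the last was -0.20 without nitrate 4. That of the elastic fiber genes went from 0.20 to 0.15 without control 1. No marker of any list had an adjusted P under 0.05 in limma. The median of 0.21 for elastic fiber genes stood beside medians of 0.18 and 0.16 for the smooth muscle and fibroblast lists, and the part of tissue makeup in the differences was not tested.

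Variation from mouse to mouse was then described after the group means had been subtracted. Over the 11 mice, 36 pairs of the 9 detected genes were compared, and 26 had a positive Pearson correlation. Only Mfap4 and Fbln5, of the 36 pairs, passed a Benjamini-Hochberg adjusted permutation test, with r = 0.91 (permutation p = 0.00018, adjusted 0.00648) and Spearman's rho = 0.88 (permutation p = 0.00032, adjusted 0.0115). Without the 2 mice farthest from the Mfap4 median, r was 0.91. Pairs that included Eln had a median r of 0.06, with a range of -0.44 to 0.55, and pairs without Eln a median of 0.46. The difference between these medians was not tested.

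Eln was also set against the enzymes that crosslink its product, Lox and Loxl1, a family of 2 correlations. Eln and Lox correlated with r = 0.86 (permutation p = 0.00999, adjusted 0.0200) and rho = 0.82 (permutation p = 0.0368, adjusted 0.0368). Lox was, like Eln, lowest in nitrate 4 and 5, at 7.43 and 7.54 against 7.81 to 8.44 in the other 9 mice. Without nitrate 2 and 4, the mice farthest from the median of Eln after the group means had been subtracted, r was 0.71. Eln and Loxl1 had r = 0.73 (permutation p = 0.0593, adjusted 0.0593) and rho = 0.86 (permutation p = 0.0203, adjusted 0.0368), and r = 0.59 without nitrate 2 and 4. Both low mice were on slide 3. The pairs were therefore also compared with slide and group means both removed and values permuted within slides, an alternative chosen after seeing the data. Eln and Lox then had r = 0.87 (permutation p = 0.00145, adjusted 0.00289) and Eln and Loxl1 r = 0.68 (permutation p = 0.0246, adjusted 0.0246). Among the 36 pairs, Mfap4 and Fbln5 had r = 0.90 (permutation p = 0.00145, adjusted 0.0260), and Eln and Fbn1, at r = 0.31 before, had r = 0.92 (permutation p = 0.000579, adjusted 0.0208). By Spearman's rho 5 of the 36 pairs had an adjusted permutation p under 0.05, these 2 and Fbn1 with Mfap4, Eln with Mfap4 and Efemp2 with Emilin1. The pairs that included Eln then had a median r of 0.30 and a range of -0.07 to 0.92, and the other pairs a median of 0.50, so that the low correlations of Eln with the other genes depended on whether slide was removed.

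**Figure D4:**
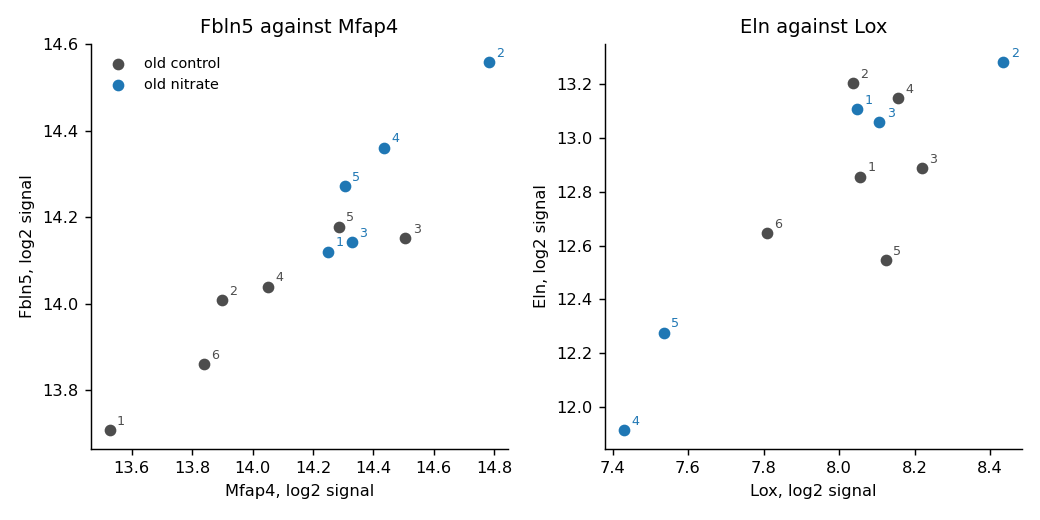
Log2 signal of Fbln5 against Mfap4 (left) and of Eln against Lox (right) on each of the 11 arrays, with old control mice in gray, old nitrate treated mice in blue and replicate numbers beside the points. Fbln5 and Mfap4 form a continuous band from control 1 to nitrate 2, whereas in the Eln and Lox plot nitrate 4 and 5 stand apart at the lower left.

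Detected genes were ranked by the correlation of their signal with that of Eln over the 11 arrays, each by whichever of its detected probes had the highest r. Among 12206 genes, U2af2, Lmnb1, Bmyc and Hdlbp were among the highest, each with r = 0.91. The elastic fiber gene ranked highest was Emilin1 at rank 2169 with r = 0.44, and Lox had rank 37 with r = 0.86. Without nitrate 4 and 5, r of these 4 genes fell to between 0.61 and 0.80 and that of Lox to 0.51. These correlations share the same arrays and are given as a description.

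Other genes of the elastic fiber pathway were taken from 5 lists that together hold 51 genes with a probe, of which 43 were detected. Nitrate treated mice had the higher mean for 35 of the 43 and the lower mean for 8, with a median difference of 0.12, where 53.8% of all detected probes were higher. An unadjusted P under 0.05 was reached by 9 genes, 8 higher and 1 lower, against 7.71% of all detected probes higher and 6.66% lower. P and fold together were passed by 5 genes, 4 higher and 1 lower, and by 9% of all detected probes, 4.16% higher and 4.85% lower. No gene had an adjusted P under 0.05 in limma, the smallest being 0.0995. The number past P and fold was 8 without nitrate 4, without control 3 or without control 4, and 11 without nitrate 5 or without control 5. Over all detected probes the number in these 5 settings lay between 2084 and 2366, against 2128 with all arrays. Without the detection filter it was also 8, against 3224 of all probes, and in that fit Adamts10 (difference 0.32, exact p = 0.00216), the inhibitor Timp1 (0.45, exact p = 0.0346) and the integrin subunit Itgb8, which was well above background on 1 of 11 arrays, had values past both limits. None of the 3 met the filter in either group, although Adamts10 and Timp1 were well above background on all 11 arrays. Their spots were found as well on 3 nitrate and 3 control arrays for Adamts10 and on 2 and 4 for Timp1.

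Of the crosslinking enzymes, 6 of 6 were detected and 5 were higher. Lox, the main lysyl oxidase of elastin, had a difference of -0.16 (SE 0.16, adjusted P = 0.698) and Loxl1, which maintains elastic fibers in adult tissue, one of 0.16 (SE 0.11, adjusted P = 0.530). Loxl4, a further lysyl oxidase, passed P and fold with log2 signals of 5.67, 6.17, 5.60, 5.47 and 5.81 in nitrate treated mice against 4.95 to 5.75 in controls. Its difference was 0.49 (SE 0.15, 1.40-fold, adjusted P = 0.215, exact p = 0.0152), but its dimmer probe had a difference of 0.05 with an adjusted P of 0.915. The probes of Loxl4 thus disagreed.

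The ADAMTS-like proteins bind fibrillin-1 and act on microfibril assembly. In this list 8 genes had a probe and 4 were detected, all 4 with higher signal in nitrate treated mice. Adamtsl2, which binds fibrillin-1 and Ltbp1, had log2 signals of 6.89, 7.34, 6.75, 6.98 and 6.98 in nitrate treated mice, all above the control range of 6.05 to 6.54. No overlap in this direction was seen for 1.61% of all detected probes. Its difference of 0.61 (SE 0.12, 1.53-fold) was the largest among the detected pathway genes, with an adjusted P of 0.0995 and an exact p of 0.00216, the smallest the design allows. Adamtsl5 had a difference of 0.39 (SE 0.12, 1.31-fold, adjusted P = 0.215, exact p = 0.0108), and its second probe one of 0.48 (adjusted P = 0.300, exact p = 0.0519).

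Among elastases and their inhibitors, 12 of 15 genes were detected, 8 higher and 4 lower. Mmp9, a gelatinase that can degrade elastin, was the one pathway gene that was lower past P and fold. Its log2 signal had a median of 4.73 in nitrate treated mice, all of which lay below the control median of 5.19, and ranged from 4.74 to 5.50 in controls. This was a difference of -0.50 (SE 0.15, adjusted P = 0.205, exact p = 0.0130), and it was detected on 4 of 5 nitrate arrays. Mmp9 thus met the detection rule only through the controls, the group in which it was higher, so that its call is not independent of the filter. Ctsk, the elastin-degrading cathepsin K, differed in the opposite direction by 0.28 (SE 0.11, 1.21-fold, adjusted P = 0.310, exact p = 0.0455).

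The related fibulins, emilins and latent TGF-beta binding proteins were all detected, 11 of 11, with 8 higher, 3 lower and none past P and fold. Of 11 genes for elastin and microfibril receptors, 10 were detected, all with higher means, as were 53.8% of all detected probes. The smallest of these differences, 9.93e-05, was practically none. No receptor gene passed P and fold, against 9% of all detected probes. Ctsa did not overlap between the groups (1.61% of all detected probes in this direction), with a difference of 0.25 and an exact p of 0.00433.

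**Figure D5:**
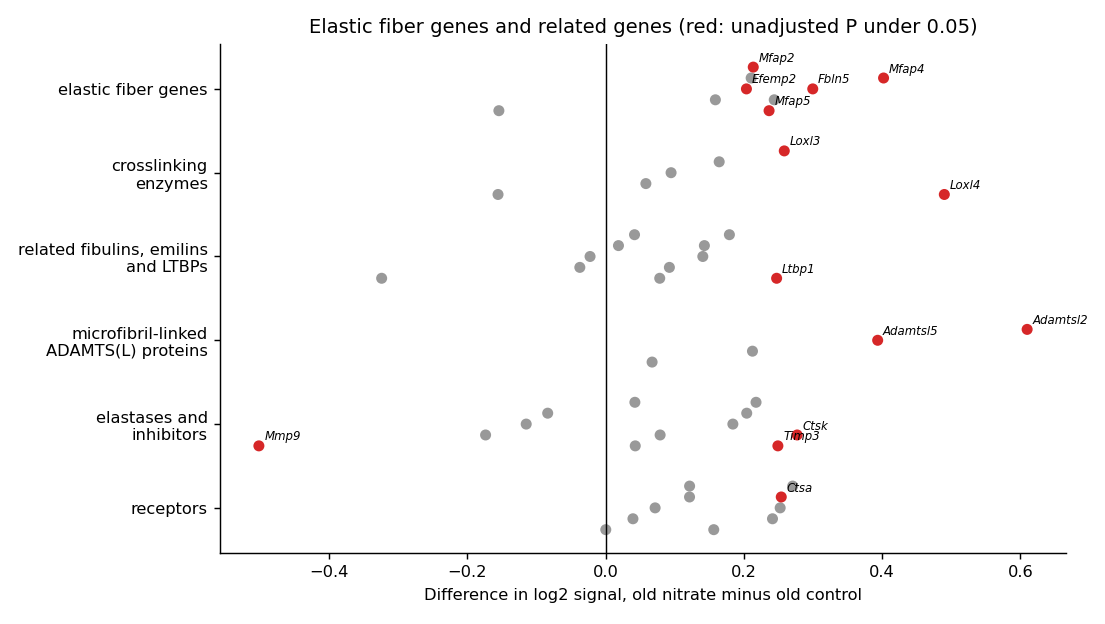
Difference in log2 signal, nitrate minus control, of the detected elastic fiber genes and of 43 detected related genes in 5 lists. Each point is a gene, red points with names have an unadjusted P under 0.05, and the vertical placement within a list only separates the points. Points above 0 outnumber those below in every list, Adamtsl2 lies farthest to the right at 0.61 and Mmp9 farthest to the left at -0.50.

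Promoter sequence from RefSeq (GRCm38.p6) was listed for 6 of the genes, Fbn1, Mfap2, Fbln5, Efemp2, Ltbp4 and Emilin1, with 12 transcription starts in all. The 250 bases before 1 start each are shown for Fbln5, Mfap2 and Emilin1, as examples of windows with and without GC boxes. Capitals mark GC boxes, the letters GGGCGG on either strand. The windows are chr12:101819120-101819369 (minus strand) with 2 GC boxes, chr4:141010431-141010680 (plus strand) with 2, and chr5:30913536-30913785 (plus strand) with 0.
Fbln5: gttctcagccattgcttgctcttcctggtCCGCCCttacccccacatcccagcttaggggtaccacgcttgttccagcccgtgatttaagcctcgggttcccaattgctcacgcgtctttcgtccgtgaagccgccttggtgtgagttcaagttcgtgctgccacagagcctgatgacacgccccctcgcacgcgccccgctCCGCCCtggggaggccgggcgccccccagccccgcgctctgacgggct
Mfap2: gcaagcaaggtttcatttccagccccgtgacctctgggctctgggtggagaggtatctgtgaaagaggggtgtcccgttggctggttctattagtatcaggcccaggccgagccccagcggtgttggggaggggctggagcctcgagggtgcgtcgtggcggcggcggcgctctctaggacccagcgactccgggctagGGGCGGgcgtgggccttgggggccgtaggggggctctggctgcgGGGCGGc
Emilin1: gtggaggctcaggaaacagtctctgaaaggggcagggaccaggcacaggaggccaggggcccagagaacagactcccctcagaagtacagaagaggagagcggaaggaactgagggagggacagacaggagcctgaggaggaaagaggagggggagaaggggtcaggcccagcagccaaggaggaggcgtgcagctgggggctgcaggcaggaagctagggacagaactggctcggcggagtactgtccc
A GC box was found before 9 of the 12 starts, against 32.74% of all 32851 listed promoters. By gene, 5 of the 6 had one before at least 1 start, a count for which no share over all genes was computed. The TATA box letters TATAAA were before 0 of the 12 starts and in 12.37% of all promoters. The E-box letters CACGTG were before 0 and in 6.02%, and the TEAD letters CATTCC before 1 and in 12.64%. The second listed start of Fbln5 and of Mfap2 had 0 GC boxes, while Fbn1, which missed an unadjusted P of 0.05, had 1 GC box and the 3 starts of Ltbp4 had 3, 5 and 7. Some starts of a gene share bases, so the 12 windows are not independent.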

How the data were processed

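Aortic RNA of 5 old nitrate treated and 6 old control mice was measured on one-color arrays. The authors deposited spot intensities and quality flags from Feature Extraction 10.7.1.1, background-subtracted and not normalized between arrays, and a table of log2 values. The deposited log2 table matched quantile normalized signals centered on the median of the 11 arrays. All its columns belong to samples of the series.

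Control spots and spots with an outlier flag were dropped. Log2 was taken of the processed signal, with values under 1 set to 1, replicate spots were averaged by probe, and quantile normalization was run across arrays. The limits on P and fold were those of the paper's methods. The groups were compared in R 4.3.3 with limma 3.58.1 (lmFit and eBayes) over all detected probes and with two-sided exact permutation tests. The script was tested on simulated data. Correlations used 100000 permutations within groups, and, chosen after seeing the data, 3456 within slides, over 36 pairs of genes, since the planned pairs with Fbn2 were dropped because it was not detected. The number of arrays limits the precision.

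The genes named were the 10 elastic fiber genes, Lox, Loxl1, pathway genes past P and fold, and the 5 genes most like Eln, of which 1 is not reported here. Adamts10, Timp1, Itgb8, Kdr, Cidec and the further pathway genes named in a figure fall outside this rule and were picked with their values in view. The genes and lists were chosen with earlier results of these data known. Gene names and mm9 probe positions are those of the array files. Exon and untranslated region annotation of mm9 was not used here.

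Alternatives covered normalization, background correction, an added constant of 16, the deposited table, detection, flagged spots, the prior variance, slide and replicate number as blocks, the choice of probe, the fold limit, and each array left out, with normalization and detected probes kept.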

Additional observations from a re-analysis of the deposited data

Results flagged for a closer look

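The brighter Mfap2 probe had 1 control mouse far from the others. On control 1 its log2 signal was 9.41, against 9.68 to 9.77 in the other 5 control mice, and the gap took up 0.764 of the range of the group, above Dixon's 95% limit for 6 samples. Of 24 groups tested (12 detected probes in 2 conditions), this was the only one, and chance alone gives about 1.2. On the same array the second Mfap2 probe, at 7.08, lay within the range of the other controls, from 6.87 to 7.13.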

How the results depend on the processing

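The number of elastic fiber genes with an adjusted P under 0.05 was 0 in all alternatives tried, and their median difference lay between 0.162 and 0.247. Fbln5 kept an unadjusted P under 0.05 in all 23 of them, with a largest value of 0.0451, whereas Efemp2 lost it in 8, Mfap4 in 6, Mfap2 in 4 and Mfap5 in 3. Ltbp4 gained it in 5 and Fbn1 in 4. The number of elastic fiber genes past P and fold, 2 in the main values, was 5 without a fold limit and between 0 and 4 when single arrays were left out. The number of other pathway genes past both, 5 in the main values, was 8 without the detection filter, 9 without a fold limit and between 4 and 11 when single arrays were left out. The difference of Eln, -0.15, lay between -0.2932 and 0.0491 when single arrays were left out and turned positive only without nitrate 4. With slide and group means removed, an alternative chosen after seeing the data, 2 pairs of elastic fiber genes instead of 1 had an adjusted permutation p under 0.05 by Pearson's r, and 5 instead of 1 by Spearman's rho. The causes were not tested, except that a lower limit admits more genes by construction.

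Deviations of same-numbered arrays correlated between -0.136 and 0.18 over 5 pairs, and 1 of the 5 nitrate arrays correlated best with the control of its own number. Other differences between arrays enter these correlations too, so they cannot settle whether replicate numbers pair the mice. With the replicate block the number of elastic fiber genes past P and fold was 1 and the number with an unadjusted P under 0.05 fell from 5 to 1, with 1 control array fewer, while all detected probes past P and fold rose from 2128 to 2433. Fbln5 kept it, and Mfap2, Mfap4, Mfap5 and Efemp2 had P values of 0.0507 to 0.0654.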
